A study of Homo sapiens with 9 samples.

Results

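The genes described here were 10 genes of the NRF2 antioxidant response: the transcription factor gene NFE2L2 (which encodes NRF2), its repressor gene KEAP1, and the target genes HMOX1, NQO1, GCLC, GCLM, TXN, TXNRD1, SRXN1 and OSGIN1. They were picked by gene symbol from the 61552 genes listed for every library, and each of the 10 symbols matched 1 gene. The RNA came from MDA-MB-231, an established human cell line of triple-negative breast cancer with wild-type genotype, kept in DMEM with fetal serum and antibiotics. The cells were exposed for 24 h to phosphate-buffered saline (control, 0 mM), to 10 mM 2-deoxy-D-glucose (2-DG) or to 20 mM 2-DG, and each condition had 3 libraries. This glucose analogue enters cells like glucose and is phosphorylated but cannot pass through glycolysis. The study used it to lower lactate production. The labels do not say whether the replicates came from separate cultures, so the p-values measure only the spread between these libraries, which may be technical.

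NRF2 is a transcription factor that is made all the time and destroyed nearly as fast: KEAP1, an adaptor of a ubiquitin ligase built on CUL3, holds it in the cytoplasm and marks it for the proteasome. Oxidants and electrophiles modify cysteines of KEAP1, NRF2 then escapes, enters the nucleus, pairs with a small MAF protein and binds antioxidant response elements. Its classical targets make glutathione, reduce thioredoxin and peroxiredoxins, reduce quinones and break down heme. Because NRF2 is set mainly by protein stability, the level of NFE2L2 mRNA is not a measure of its activity.

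The core of an antioxidant response element reads TGACNNNGC, or GCNNNGTCA on the other strand. To show what this sequence looks like at these genes, RefSeq promoters (GRCh38.p14, from 250 bases before to 50 bases after a gene's start) were searched on both strands. Promoters of 9 of the 10 genes were matched, 12 windows in all, and HMOX1 had no match. The motif lay in at least 1 window of 3 of these 9 genes (33.3%), KEAP1, GCLM and TXNRD1, and in 19.3% of the 11334 genes tested below that had a promoter. It was found in 13.3% of all 35116 promoters. In the following 29-base windows, written 5′ to 3′ along the gene's own strand, the motif is in capitals.
KEAP1 chr19:10502784-10502812, minus strand: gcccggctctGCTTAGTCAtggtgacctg
KEAP1 chr19:10502807-10502835, minus strand: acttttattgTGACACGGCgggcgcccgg
GCLM chr1:93909446-93909474, minus strand: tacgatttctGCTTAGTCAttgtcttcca
TXNRD1 chr12:104215670-104215698, plus strand: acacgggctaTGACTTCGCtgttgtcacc
TXNRD1 chr12:104215761-104215789, plus strand: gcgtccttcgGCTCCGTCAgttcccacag
TXNRD1 chr12:104286920-104286948, plus strand: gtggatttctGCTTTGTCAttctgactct
The first motif base lay 54 and 31 bases before one KEAP1 start, 34 before that of GCLM, and 99 and 8 before one TXNRD1 start and 102 before another. The 9 motif bases were the same at the first KEAP1 window and at GCLM, and differed from these at the other 4 windows. The search covers only these windows, and enhancers farther away were not searched.

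The values are FPKM, read counts corrected for gene length and sequencing depth. Comparisons of level between genes rest on the gene lengths the authors used, and those between libraries on correction for library totals alone. FPKM is a share of each library's RNA, and a change per cell cannot be told apart from a change in the rest of the RNA. Fold changes were tested with limma on log2(FPKM + 1) with all 9 libraries in one fit and Benjamini-Hochberg adjustment over 16571 genes, and a gene was called at an adjusted p under 0.05. The pseudocount of 1 understates changes of genes at low FPKM, so ratios of mean FPKM are also given. All 10 genes passed the filter on low reads. Library totals recovered from the FPKM values ran from 30974968 to 40843638 reads. The marker genes VIM, AXL, MSN, CD44, FN1 and CAV1 were expressed in every library, and ESR1 and PGR stayed at or under 0.0204 FPKM. KRT8 and KRT18, listed as low in this line, were at 80.5 to 153 and 126 to 164 FPKM. Of the other genes listed as absent or low, ERBB2 was at 5.53 to 9.11 FPKM, EPCAM at 2.61 to 4.51 and CDH1 at 0.0479 to 0.417. The 4 immune markers were each under 1 FPKM in every library. The 3 fibroblast markers summed to 1.63 to 1.70 FPKM in control libraries and to less with 2-DG (1.20 to 1.27 at 10 mM, 1.22 to 1.55 at 20 mM), with DCN at or near 0. The 2 endothelial markers summed to 1.44 to 1.95 FPKM in control libraries and likewise to less with 2-DG (1.10 to 1.43 and 0.826 to 1.05), with CDH5 at or near 0. The part of these markers in the results was not tested.

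At 10 mM 2-DG, 8 of the 10 genes rose and 0 fell. The largest ratios of mean FPKM among them were those of OSGIN1 (2.47-fold), HMOX1 (2.05-fold), GCLC (1.78-fold) and SRXN1 (1.63-fold). TXN and TXNRD1 did not pass the test. Over all 16571 genes tested, 12.1% were called higher and 17.5% lower in this comparison. All libraries of 8 genes lay above the control libraries, as did those of 17.8% of all genes. The count of called genes fell to 5 of 10 without 10 mM replicate 1 or without control replicate 1. At 20 mM 2-DG, 9 of the 10 genes rose and 0 fell, against 15.3% of all genes called higher and 21.6% called lower, and TXN did not pass the test. All libraries of all 10 genes lay above the control libraries at 20 mM, against 23.3% of all genes. The median log2 fold change of the 10 genes was 0.41 at 10 mM and 0.48 at 20 mM, whereas the medians of all genes tested were -0.0112 and -0.021. With upper-quartile scaling, 2497 genes were called higher and 2306 lower at 10 mM in place of 2011 and 2903, and 3282 and 2776 at 20 mM in place of 2543 and 3582. The comparisons at the 2 doses share the control libraries.

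**Figure D1:**
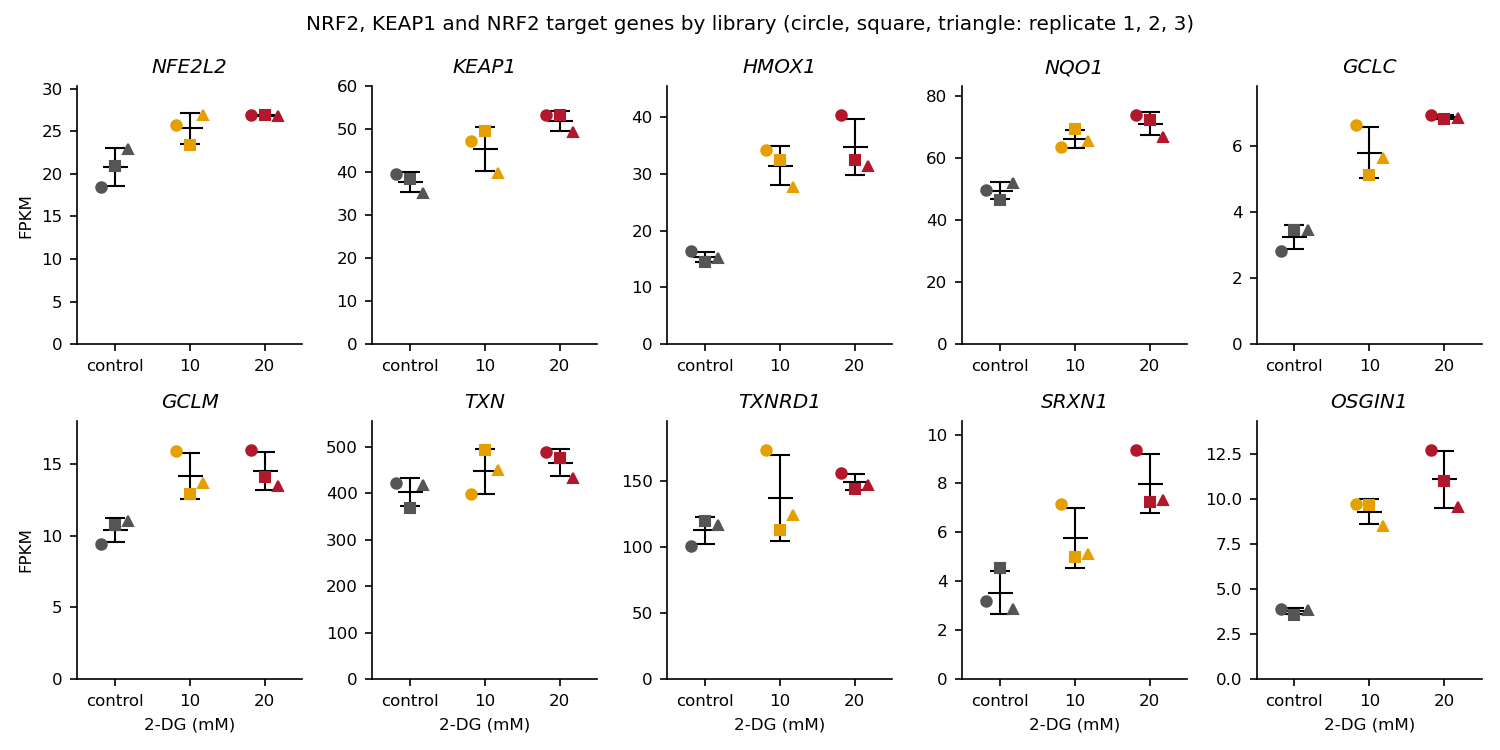
FPKM of the 10 genes in each library (y axis, linear from 0, own scale per gene) by 2-DG dose in mM (x axis); points are libraries with a symbol per replicate number, the long bar is the mean and the whiskers are 1 SD over 3 libraries. At 20 mM all libraries of all 10 genes sit above the 3 control libraries, and at 10 mM TXN and TXNRD1 overlap with the control.

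NFE2L2 and KEAP1, the regulator pair, rose modestly. NFE2L2 (ENSG00000116044, chromosome 2, 177227595 to 177392697, minus strand, GRCh38) was at 18.5, 20.9 and 23.0 FPKM in the control libraries, at 25.7, 23.4 and 26.9 FPKM at 10 mM and at 26.9, 26.9 and 26.8 FPKM at 20 mM. Every treated library was above every control library, and the 20 mM libraries were nearly equal (SD 0.0446 FPKM, n = 3). Its log2 fold change was 0.28 (SE 0.0804, limma adjusted p = 0.027) at 10 mM and 0.36 (SE 0.0804, limma adjusted p = 0.00632) at 20 mM. The call at 10 mM was lost without control replicate 1 (adjusted p = 0.0843) and without 3 of the other libraries, each in turn.

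KEAP1 (ENSG00000079999, chromosome 19, 10486120 to 10503741, minus strand), the sensor that targets NRF2 for degradation and is itself a described NRF2 target, was at 39.6, 38.4 and 35.1 FPKM in the control. It was at 47.2, 49.5 and 39.7 FPKM at 10 mM and at 53.4, 53.2 and 49.2 FPKM at 20 mM. The lowest 10 mM library was 10 mM replicate 3, which was close to the highest control library. Its log2 fold change was 0.26 (SE 0.0845, limma adjusted p = 0.0431) at 10 mM and 0.45 (SE 0.0845, limma adjusted p = 0.00237) at 20 mM. The 10 mM call for KEAP1 was lost when any of 8 libraries was left out, with adjusted p between 0.055 and 0.138. KEAP1 FPKM divided by NFE2L2 FPKM gave 1.84 ± 0.306 (SD, n = 3) for control libraries, 1.81 ± 0.321 with 10 mM and 1.94 ± 0.0844 with 20 mM, and these ratios overlapped between the groups.

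HMOX1 and NQO1, the enzyme genes most often used as readouts of NRF2, both rose at both doses. HMOX1 (ENSG00000100292, chromosome 22, 35380361 to 35394214, plus strand) encodes the inducible heme oxygenase, which opens heme to biliverdin, iron and carbon monoxide. It was at 16.3, 14.5 and 15.1 FPKM in the control, at 34.2, 32.4 and 27.6 FPKM at 10 mM and at 40.4, 32.4 and 31.3 FPKM at 20 mM. The lowest treated library was well above the highest control library. HMOX1 had a log2 fold change of 0.99 (SE 0.106, limma adjusted p = 0.000131) at 10 mM and 1.12 (SE 0.106, limma adjusted p = 3.81e-05) at 20 mM, and the ratios of means were 2.05 and 2.27.

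NQO1 (ENSG00000181019, chromosome 16, 69706996 to 69726951, minus strand), a quinone reductase that avoids semiquinone radicals, started from a higher level and rose less. Its libraries measured 49.8, 46.6 and 52.1 FPKM in the control, 63.7, 69.5 and 65.5 FPKM at 10 mM and 74.0, 72.4 and 66.9 FPKM at 20 mM. The groups did not overlap with the control, while the 2 doses overlapped with each other. For NQO1 the log2 fold change was 0.41 (SE 0.0638, limma adjusted p = 0.00109) at 10 mM and 0.51 (SE 0.0638, limma adjusted p = 0.000206) at 20 mM.

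GCLC and GCLM encode the catalytic and the modifier subunit of glutamate-cysteine ligase, the enzyme that sets the rate of glutathione synthesis. Both rose, GCLC by more than GCLM. GCLC (ENSG00000001084, chromosome 6, 53497341 to 53616970, minus strand) was at 2.83, 3.46 and 3.46 FPKM in the control, at 6.64, 5.13 and 5.63 FPKM at 10 mM and at 6.95, 6.82 and 6.87 FPKM at 20 mM. The 3 groups did not overlap with each other. Its log2 fold change was 0.68 (SE 0.0984, limma adjusted p = 0.000775) at 10 mM and 0.89 (SE 0.0984, limma adjusted p = 9.92e-05) at 20 mM, and the ratio of means reached 2.12 at 20 mM.

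GCLM (ENSG00000023909, chromosome 1, 93885205 to 93909456, minus strand), whose promoter window holds the motif printed above, was at 9.42, 10.7 and 11.0 FPKM in the control. It was at 15.9, 12.9 and 13.7 FPKM at 10 mM and at 16.0, 14.1 and 13.5 FPKM at 20 mM, so that the 2 doses spanned nearly the same range. GCLM had a log2 fold change of 0.41 (SE 0.0952, limma adjusted p = 0.0101) at 10 mM and 0.44 (SE 0.0952, limma adjusted p = 0.00505) at 20 mM. The ratio of GCLC to GCLM FPKM was 0.301, 0.323 and 0.313 in the control libraries, 0.417, 0.398 and 0.412 at 10 mM and 0.435, 0.485 and 0.509 at 20 mM. These ratios did not overlap between any of the 3 groups. The exact two-sided permutation test gave p = 0.1 for each of the 3 comparisons, which is the smallest p that 3 against 3 libraries allow, so this difference could not pass 0.05.

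The thioredoxin genes gave a mixed picture: SRXN1 rose at both doses, TXNRD1 passed the test at 20 mM and TXN at neither dose. TXN (ENSG00000136810, chromosome 9, 110243811 to 110256640, minus strand) encodes thioredoxin, the small protein that reduces disulfides, and had the highest level of the 10 genes. It was at 421, 367 and 418 FPKM in the control, at 397, 494 and 450 FPKM at 10 mM and at 487, 476 and 433 FPKM at 20 mM. At 10 mM the libraries overlapped with the control, and at 20 mM the lowest library was just above the highest control library. For TXN the log2 fold change was 0.15 (95% interval -0.07 to 0.37, limma adjusted p = 0.289) at 10 mM and 0.21 (95% interval -0.0087 to 0.43, limma adjusted p = 0.122) at 20 mM. Reads of 7 TXN pseudogenes found by name, which could draw reads from the parent gene, were few, with at most 0.869 FPKM in any library. This does not show whether TXN lost reads that match several places, because the aligner and counting tool are not given.

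TXNRD1 (ENSG00000198431, chromosome 12, 104215779 to 104350305, plus strand) encodes the cytosolic thioredoxin reductase, a selenoprotein that recharges thioredoxin with NADPH. It was at 101, 120 and 117 FPKM in the control, at 174, 113 and 124 FPKM at 10 mM and at 156, 145 and 147 FPKM at 20 mM. At 10 mM a single library, 10 mM replicate 1, stood far above the rest, and the other 10 mM libraries lay near the control. The log2 fold change at 10 mM was 0.26 (SE 0.14, limma adjusted p = 0.196), and without that library it was 0.07 (limma adjusted p = 0.561). At 20 mM the libraries did not overlap with the control, with a log2 fold change of 0.41 (SE 0.14, limma adjusted p = 0.0449). This call was lost without any one of 7 libraries, with adjusted p between 0.054 and 0.138, and without a filter on low reads (adjusted p = 0.134).

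SRXN1 (ENSG00000271303, chromosome 20, 646615 to 653370, minus strand) encodes sulfiredoxin, which rescues overoxidized peroxiredoxins. It was at 3.20, 4.53 and 2.86 FPKM in the control, at 7.17, 5.00 and 5.10 FPKM at 10 mM and at 9.39, 7.25 and 7.33 FPKM at 20 mM. The 3 groups did not overlap with each other, and replicate 1 was the highest at both doses. SRXN1 had a log2 fold change of 0.58 (SE 0.165, limma adjusted p = 0.0252) at 10 mM and 1.00 (SE 0.165, limma adjusted p = 0.0012) at 20 mM, a ratio of means of 2.26 at 20 mM. At 10 mM the call was lost without 10 mM replicate 1 (adjusted p = 0.074), without control replicate 1 (adjusted p = 0.0755) and without control replicate 3 (adjusted p = 0.0893). In GENCODE release 29, 85% of the SRXN1 exon bases are shared with AL121758.1 on the same strand, which was listed at a mean of 0.00669 FPKM, and how the authors split reads between such genes is not given in the sources used here.

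OSGIN1 (ENSG00000140961, chromosome 16, 83948282 to 83966332, plus strand), an oxidative stress-induced growth inhibitor, had the largest log2 fold change of the 10 genes at both doses. It was at 3.89, 3.56 and 3.82 FPKM in the control, at 9.72, 9.63 and 8.49 FPKM at 10 mM and at 12.7, 10.9 and 9.52 FPKM at 20 mM. All treated libraries were far above the control, and the 2 doses overlapped. The log2 fold change was 1.11 (SE 0.0993, limma adjusted p = 4.33e-05) at 10 mM and 1.34 (SE 0.0993, limma adjusted p = 8.21e-06) at 20 mM, and the ratios of means were 2.47 and 2.95. By the thresholds in the study's methods (unadjusted p under 0.05 and a log2 fold change beyond 1 in size), OSGIN1 was the 1 gene of the 10 called at 10 mM, against 0.579% of all genes called higher. At 20 mM, HMOX1 and OSGIN1 were called by those thresholds, against 0.966% of all genes. These counts are on the log2(FPKM + 1) scale, whose pseudocount shrinks the changes of low genes. With limma-voom on recovered reads the same thresholds called 2 of the 10 genes at 10 mM (HMOX1 and OSGIN1, against 4.4% of all genes) and 4 at 20 mM (HMOX1, GCLC, SRXN1 and OSGIN1, against 5.59%).

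**Figure D2:**
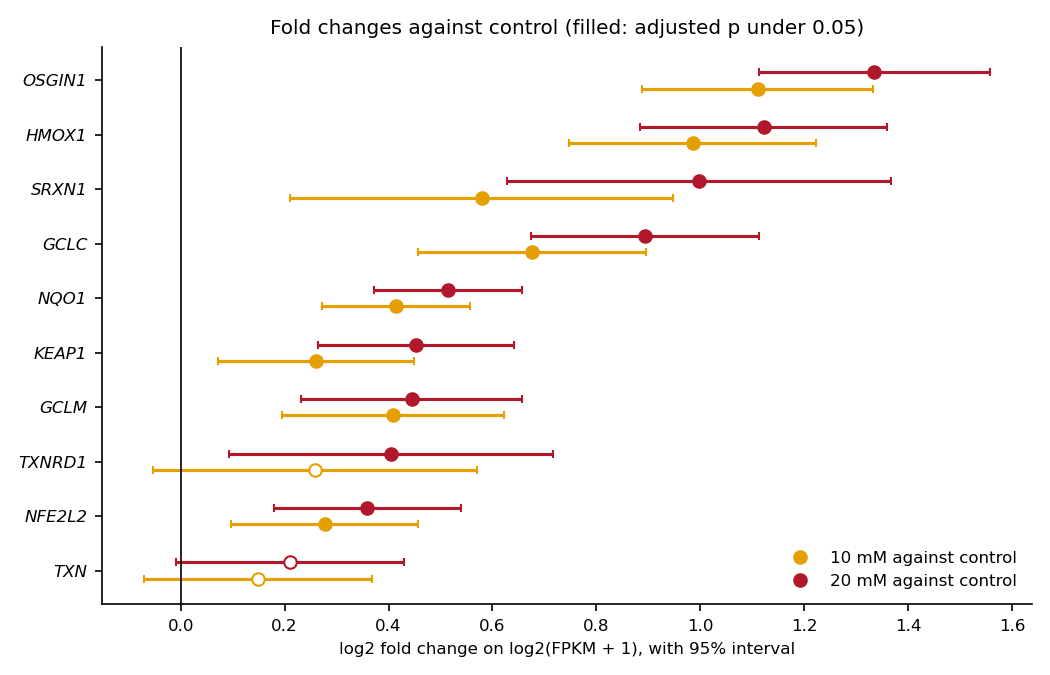
Log2 fold change of each gene against the control on the log2(FPKM + 1) scale (x axis) with its 95% interval from limma, for 10 mM and 20 mM 2-DG; filled points had an adjusted p under 0.05. OSGIN1, HMOX1, SRXN1 and GCLC lie farthest to the right, and the intervals of TXN at both doses and of TXNRD1 at 10 mM include 0.

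Between the doses, the mean FPKM of all 10 genes was in the order control, 10 mM, 20 mM, an order held by 25.1% of the genes tested. None of these steps from 10 to 20 mM passed the test: limma called 0 of the 10 genes and 0% of all 16571 genes, with 1140 genes at an unadjusted p under 0.05, and limma-voom on recovered reads also called 0. SRXN1 had the largest log2 difference of the 10 genes, 0.42 (95% interval 0.05 to 0.79, unadjusted p = 0.03, limma adjusted p = 0.671). OSGIN1 differed by 0.22 (95% interval 0.0023 to 0.45, limma adjusted p = 0.72) and KEAP1 by 0.19 (95% interval 0.0044 to 0.38, limma adjusted p = 0.72), both with an unadjusted p under 0.05 as well. GCLC differed by 0.22 (95% interval -0.0019 to 0.44, limma adjusted p = 0.726). GCLC and SRXN1 were the 2 genes of the 10 whose 20 mM libraries all lay above the 10 mM libraries, against 4.71% of all genes. Without 10 mM replicate 1, the high library of the TXNRD1 measurement, 1 gene of all tested was called higher and 3 lower at 20 mM than at 10 mM.

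**Figure D3:**
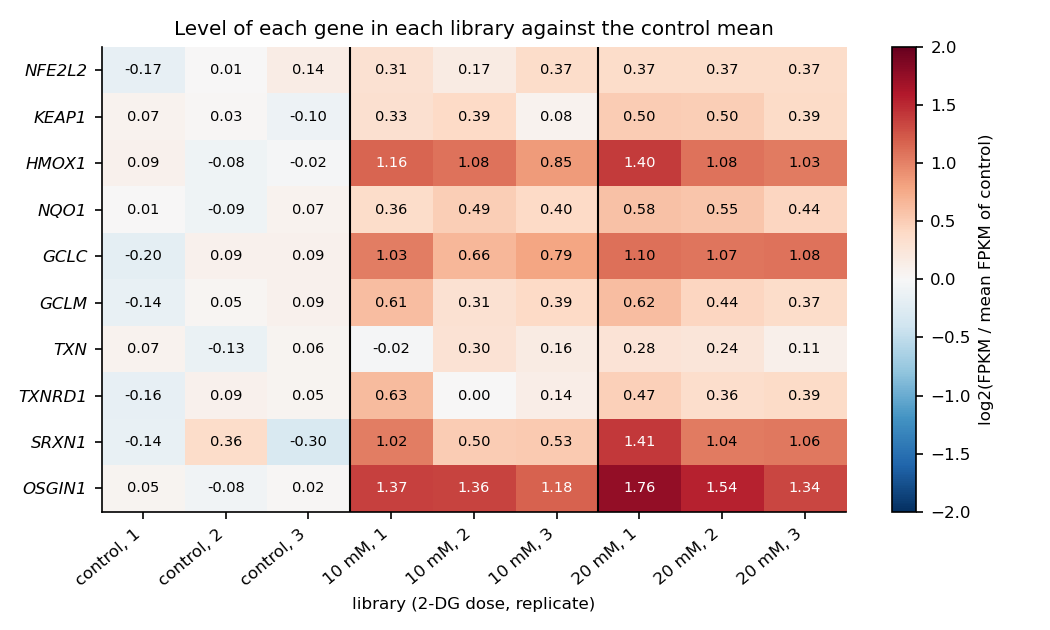
Log2 ratio of each library's FPKM to the mean FPKM of the control libraries, without a pseudocount, for the 10 genes (rows) in the 9 libraries (columns, grouped by 2-DG dose); red is above and blue below the control mean. Apart from TXN in 10 mM replicate 1 (-0.02) and TXNRD1 in 10 mM replicate 2, which sat at the control mean, every treated library is above the control mean, and 20 mM replicate 1 holds the highest ratio for most genes.

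The order of levels in the control was TXN, TXNRD1, NQO1, KEAP1, NFE2L2, HMOX1, GCLM, OSGIN1, SRXN1 and GCLC by mean FPKM, from 402 ± 30.2 to 3.25 ± 0.363 FPKM (SD, n = 3). Neighbours in this order did not overlap, except the last 3, whose libraries overlapped with their neighbours. With 2-DG, HMOX1 moved above NFE2L2, at 31.4 ± 3.38 against 25.3 ± 1.79 FPKM at 10 mM and 34.7 ± 4.93 against 26.8 ± 0.0446 FPKM at 20 mM, with no overlap. At 10 mM GCLC and SRXN1 overlapped, and at 20 mM no neighbours did. The lengths behind FPKM are the authors', so the order of all these genes depends on the annotation. For OSGIN1 the length that gave whole reads was 5558 bases against 3460 exon bases in GENCODE release 29, so its place is the least certain in this respect.

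The spread between libraries was not the same for all genes. The coefficient of variation was largest for SRXN1 in the control (25.1%) and for TXNRD1 at 10 mM (23.7%), and under 1% for NFE2L2 (0.166%) and GCLC (0.984%) at 20 mM. 10 mM replicate 1 was the highest library of its group for 6 of the 10 genes, HMOX1, GCLC, GCLM, TXNRD1, SRXN1 and OSGIN1, and for 41.1% of all genes tested, and it was the lowest for NQO1 and TXN. At 20 mM, replicate 1, the library with the fewest reads, was the highest of its group for 9 of the 10 genes and for 28.4% of all genes. 20 mM replicate 3 was the lowest for 7 of the 10 genes and for 32.5% of all genes. Whether depth played a part was not tested. Over the 9 libraries' deviations from their group means, the Pearson r of TXN had both signs, from -0.753 with TXNRD1, -0.745 with GCLC and -0.621 with SRXN1 to 0.421 with OSGIN1 and 0.901 with NQO1. These are descriptions over 9 libraries in 3 groups and carry no test.

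Other redox genes, not all of them partners or targets of NRF2, did not all move with the 10 genes. The 10 lists of redox genes were written from general knowledge, with earlier results of these data known. They are counted here without the 10 genes and held 126 tested genes. At 10 mM, 34 (27.0%) were called higher and 26 (20.6%) lower, against 12.1% and 17.5% of all genes. At 20 mM, 44 (34.9%) were called higher and 29 (23.0%) lower, against 15.3% and 21.6% of all genes. The share called higher was thus above that of all genes at both doses, while their median log2 fold change at 20 mM was -0.0074, close to that of all genes. Because earlier results were known when the lists were written, the higher share may in part follow from the choice of genes and is no test. Counts in the following paragraphs include the 10 genes where a list holds them, are for 20 mM against control, and compare with 15.3% called higher and 21.6% called lower over all genes. All fold changes there are on the log2(FPKM + 1) scale.

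**Figure D4:**
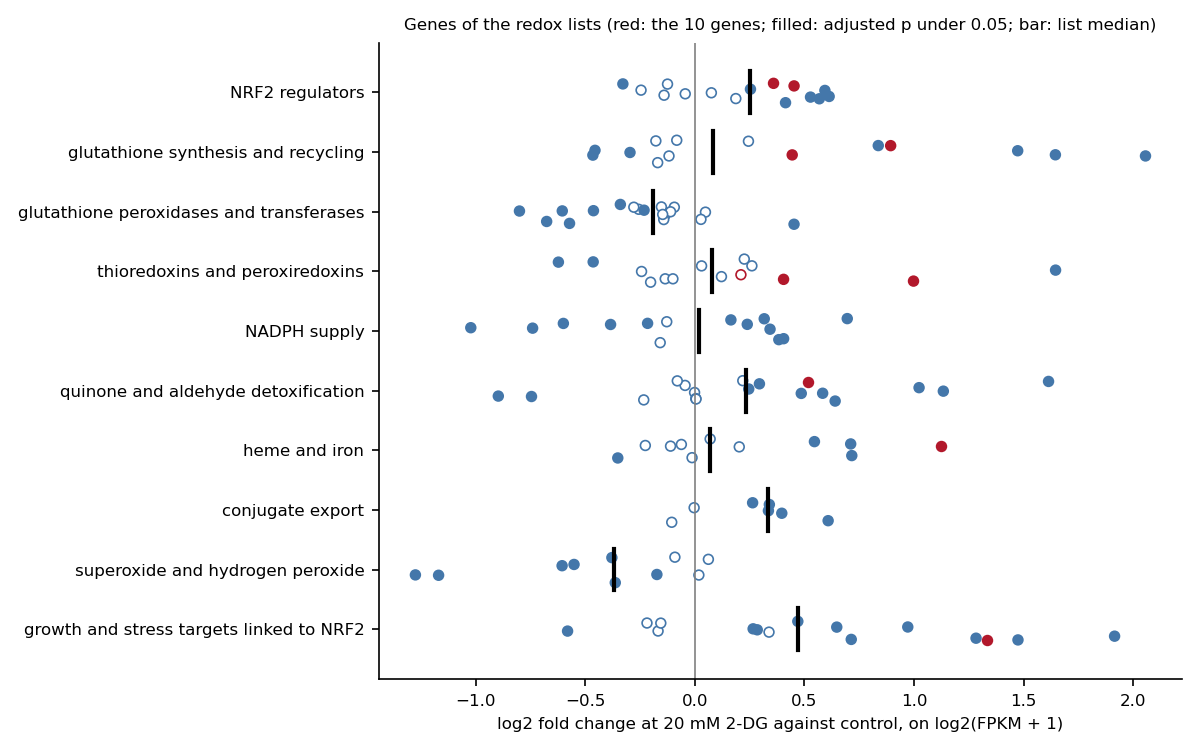
Log2 fold change at 20 mM 2-DG against control on the log2(FPKM + 1) scale (x axis) for every tested gene of the 10 redox lists (rows); filled points had an adjusted p under 0.05, red points are the 10 genes described above, and black bars are list medians. Conjugate export and growth and stress genes lie mostly to the right, superoxide and hydrogen peroxide genes mostly to the left, and the NADPH list has called genes on both sides.

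Among 15 regulators of NRF2, 8 rose and 1 fell, with a median log2 fold change of 0.25. MAFG, a small MAF partner of NRF2, rose from 26.0 ± 1.05 to 40.3 ± 2.21 FPKM (SD, n = 3, limma adjusted p = 0.00105). SQSTM1, the autophagy adaptor p62 that binds KEAP1, rose from 180 ± 6.14 to 272 ± 14.0 FPKM (limma adjusted p = 0.000177). BACH1, a repressor that competes with NRF2 for response elements and binds heme, was at 3.60 ± 0.749 FPKM in the control and 5.76 ± 0.434 FPKM at 20 mM (limma adjusted p = 0.0388), a call that was lost without any one of 6 libraries (adjusted p from 0.0539 to 0.128), without the filter on low reads (0.118) and with the replicate block (0.0681). The related factor NFE2L1 (log2 fold change 0.53) and the kinase gene GSK3B (0.41) also rose. The ligase adaptor BTRC passed the test at 0.25 (limma adjusted p = 0.0452), and not without any one of 7 libraries (adjusted p from 0.0531 to 0.141), without the filter (0.0601) or with the replicate block (0.0749). RBX1, the ring subunit of the ligase, fell by 0.33 (limma adjusted p = 0.0431) and was not called with median-ratio scaling (adjusted p = 0.118) or upper-quartile scaling (adjusted p = 0.147), or without any one of 6 libraries (0.0542 to 0.143). CUL3, FBXW11, DPP3, PGAM5, MAFF and MAFK were not called at 20 mM, at -0.12, -0.24, -0.04, -0.14, 0.08 and 0.19.

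In glutathione synthesis and recycling, 6 of 14 genes rose and 3 fell, with a median log2 fold change of 0.08. The largest increases in mRNA were not in the ligase genes but in transporter genes, and uptake of cystine was not measured. SLC3A2 and SLC7A11, the heavy and light chain of the cystine-glutamate exchanger, rose from 108 ± 4.40 to 451 ± 18.1 FPKM and from 4.69 ± 0.66 to 16.7 ± 0.417 FPKM (limma adjusted p = 2.85e-07 and 3.86e-05). CHAC1, which degrades glutathione, rose from 16.4 ± 2.67 to 46.9 ± 1.10 FPKM (limma adjusted p = 1.5e-05). GSS, which completes glutathione, fell from 32.8 ± 1.80 to 23.5 ± 1.14 FPKM (limma adjusted p = 0.000638). OPLAH fell by 0.45 and GGT5 by 0.30 on the log2 scale, and GGT5 was not called with either other scaling (adjusted p = 0.0608 and 0.0858), nor without any one of 4 libraries (0.0505 to 0.0749). GSR, which recycles oxidized glutathione, was at 0.25 (adjusted p = 0.0987), and was called with median-ratio scaling (adjusted p = 0.0374).

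Glutathione peroxidases and transferases went the other way: of 18 tested genes 1 rose and 7 fell, with a median log2 fold change of -0.19. MGST1, a microsomal transferase, rose from 33.2 ± 1.64 to 45.8 ± 2.24 FPKM (limma adjusted p = 0.00162). The falls included GSTA4, a transferase for lipid aldehydes, from 3.78 ± 0.334 to 2.00 ± 0.363 FPKM, and MGST2, from 4.65 ± 0.32 to 2.72 ± 0.382 FPKM (limma adjusted p = 0.00317 and 0.00326). GSTM1 was listed lower by 0.80 on the log2 scale, but its near-identical relatives make its reads uncertain. The list for superoxide and hydrogen peroxide also fell, with 0 of 10 genes higher and 7 lower and a median of -0.37. NOX5, which makes superoxide, fell from 3.45 ± 0.127 to 0.841 ± 0.0697 FPKM (limma adjusted p = 2.3e-06). SOD2, the mitochondrial superoxide dismutase, fell from 25.9 ± 4.17 to 10.9 ± 1.09 FPKM (limma adjusted p = 4.73e-05), and SOD3 fell by 0.61 on the log2 scale. This list thus held genes that make and genes that remove oxidants, and both kinds fell.

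In the list of thioredoxins and peroxiredoxins, 3 of 14 genes rose, TXNRD1, SRXN1 and TXNIP, and 2 fell. TXNIP, which binds and inhibits thioredoxin, rose from 52.1 ± 5.31 to 165 ± 5.89 FPKM (limma adjusted p = 5.09e-07), more than any of the other genes on the list by log2 fold change (1.65). PRDX3, the mitochondrial peroxiredoxin, fell from 70.6 ± 1.43 to 45.5 ± 0.537 FPKM (limma adjusted p = 4.05e-05). With upper-quartile scaling PRDX4 and PRDX5 were also called higher, so that 5 of 14 rose. Without 10 mM replicate 1, 5 were called higher and 4 lower, and without 10 mM replicate 2, 5 and 3. For NADPH supply the calls were split, with 7 of 14 genes higher and 5 lower and a median of 0.02. MTHFD2 (log2 fold change 0.70), ME1 (0.41) and ME3 (0.38) rose, and IDH2 fell by 1.02, MTHFD1 by 0.74 and NNT by 0.60. All 6 are enzymes that reduce NADP or, for MTHFD2, chiefly NAD.

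Quinone and aldehyde detoxification had 9 of 18 genes higher, NQO1 among them, and 2 lower, with a median of 0.23. UGDH, which makes the sugar donor for glucuronidation, rose from 17.3 ± 1.70 to 36.0 ± 0.364 FPKM (limma adjusted p = 0.000128). The aldo-keto reductase genes AKR1C1 and AKR1C3 were listed higher by 1.61 and 1.13 on the log2 scale. AKR1C2 was listed at 0.371 FPKM in the control and 0.920 FPKM at 20 mM (0.49, limma adjusted p = 0.000571). Sequences of the AKR1C genes are alike, and reads may be split among them. ALDH7A1 fell by 0.90 and CBR3 by 0.74. Of the heme and iron genes, 4 of 11 rose and 1 fell. Beside HMOX1 these were FTL (0.72) and FTH1 (0.71), the ferritin chains that store iron and have many processed pseudogenes, and the heme transporter SLC48A1 (0.55, from 3.11 ± 0.178 to 5.00 ± 0.233 FPKM). BLVRA fell by 0.35 and was not called with median-ratio (adjusted p = 0.0979) or upper-quartile scaling (adjusted p = 0.123), or without any one of 5 libraries (0.0575 to 0.104).

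Of 7 genes on the conjugate export list, 5 rose and 0 fell. Among them were SLC7A5 (0.61), an amino acid transporter rather than a conjugate pump, and the drug pump ABCG2 (0.40). ABCC5 was called as well (0.34, limma adjusted p = 0.035), but 3 of the 7 were called, ABCC5 not among them, without control replicate 1, control replicate 3 or any one of the 20 mM libraries, and with the replicate block. Without a filter on low reads 2 were called. Growth and stress genes that have been linked to NRF2 had 10 of 15 higher and 1 lower, and the highest list median, 0.47. Besides OSGIN1, the leading genes were TRIB3, from 29.7 ± 3.88 to 114 ± 3.21 FPKM, DDIT3, from 27.2 ± 3.09 to 77.1 ± 2.37 FPKM, and SESN2, from 8.41 ± 1.13 to 21.8 ± 1.50 FPKM (limma adjusted p = 5.09e-07, 1.22e-05 and 7.31e-06). These 3 genes are also known targets of the stress factor ATF4. ATF4, itself on this list, rose from 145 ± 6.81 to 228 ± 4.86 FPKM (limma adjusted p = 0.000135). Genes of the other lists were not sorted by whether ATF4 targets them, and a part of ATF4 in these changes was not tested. PIR, an iron-binding nuclear protein, fell by 0.58. Without control replicate 3 or 10 mM replicate 3, 2 genes of this list were called lower, and without 10 mM replicate 2, 3 were.

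The genes whose pattern was most like that of each of the 10 were found by Pearson correlation of log2(FPKM + 1) over the 9 libraries, among 6084 genes with a mean FPKM of at least 5. The 9 points fall in 3 groups, so these values follow mainly the difference between treated and control cells. OSGIN1 was closest to AKR1C1 (r = 0.997), HMOX1 to DUSP1 (0.995), a phosphatase gene of early stress responses, and next to OSGIN1 (0.994). NQO1 was closest to TRIM16 (0.997), with FTL (0.992) among its 3 closest genes. GCLC was closest to FICD (0.994), with UGDH (0.992) among its 3, and TXNRD1 was closest to ARCN1 (0.984) and then to GSR (0.982). TXN was closest to the ribosomal protein gene RPL32 (0.977), and ribosomal protein genes RPL27A and RPL36AL followed. KEAP1 was closest to H2BC12 (0.990), NFE2L2 to YIPF5 (0.980), GCLM to BHLHE40 (0.977) and SRXN1 to ZSWIM8 (0.983). Among the 45 pairs of the 10 genes, r over the 9 libraries ran from 0.0672 for TXN with TXNRD1 to 0.994 for HMOX1 with OSGIN1, with a median of 0.843. Over deviations from the group means, the median was 0.225 and the range -0.753 to 0.946.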

How the data were processed

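The RNA-seq data comprised 9 libraries of MDA-MB-231 cells (control, 10 mM and 20 mM 2-DG for 24 h, 3 each), grouped by their labels. The authors deposited FPKM values, one file per library, from total RNA, an mRNA-Seq library kit and an Illumina instrument. The submitters' processing notes name GRCh38 and hg38. The aligner, counting tool, annotation release and use of strand are not given in the sources used here, so antisense reads cannot be told apart.

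Read numbers were recovered from the FPKM values: library totals were found with GENCODE release 29 exon lengths, and for each gene a length was then taken that made its 9 values whole (tolerance 0.001 reads). A length was found for all 32806 genes above 0. It was the GENCODE length for 48.9% of them and for 0 of the 10 genes, and recovered reads made up 99.8% to 99.9% of library totals. A factor common to reads and length cannot be seen, and these are not the authors' counts. Genes needed at least 10 reads at median depth in at least 3 libraries and 15 in all (16571 genes). limma 3.58.1 (R 4.3.3; lmFit, contrasts, eBayes with trend) was run on log2(FPKM + 1), all 9 libraries, with Benjamini-Hochberg adjustment over the whole table and without a replicate block. The study's own tool needs raw counts. limma-voom on the recovered reads was an alternative, and the fit was tested on simulated data.

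The 10 genes and all lists were chosen with earlier results of these data known. Genes named from a list had a mean of at least 1 FPKM and were, per direction, up to 3 called genes ranked by the size of their log2 fold change at 20 mM. Any NRF2 regulator could also be named. In the report, ATF4, GSR, PRDX4, PRDX5, AKR1C2 and marker genes are named outside this rule after their values were seen. For like patterns, the 3 genes with the highest correlation were taken. Promoter sequences are RefSeq's (GRCh38.p14). The lactate-treated libraries are not analysed here.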

Additional observations from a re-analysis of the deposited data

How the results depend on the processing

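Under 19 alternatives, log2 fold changes of the 10 genes against the control kept their sign. At 10 mM, 169 of 190 kept their side of the threshold and 21 lost the call, all for KEAP1, NFE2L2 and SRXN1. At 20 mM, 179 kept it, 10 lost it, all for TXNRD1, and TXN gained it with limma-voom and median-ratio factors, an alternative chosen after seeing the data (0.27, adjusted p = 0.0449). The genes called higher at 10 mM were 5 without a filter on low reads and 1 by the study's thresholds, and at 20 mM 2 by those thresholds. When 1 library was left out, between 5 and 7 genes were called at 10 mM. By the study's thresholds, 96 of all genes were higher and 192 lower at 10 mM, 160 higher and 324 lower at 20 mM, and 1 higher at 20 mM than at 10 mM. With limma-voom and the study's thresholds, an alternative also chosen after seeing the data, 2 of the 10 genes were called at 10 mM and 4 at 20 mM, and of all genes 729 higher and 857 lower, 926 and 1193, and, between the doses, 87 and 87. Between the doses 3 genes were lower without the filter, and 0 to 1 higher and 0 to 3 lower with 1 library left out. With 1 library left out, the log2 difference between the doses ran from -0.0315 (without 20 mM replicate 1) to 0.118 for GCLM, which was also at -0.0248 without 10 mM replicate 2, and from -0.020 (without 10 mM replicate 1) to 0.136 for TXN. The causes were not tested. Deviations of same-numbered libraries from their group means correlated at r from -0.406 to 0.293, with both signs. With so few libraries this cannot tell whether a replicate number stands for a shared culture or batch. With the replicate block, 8 genes were called at 10 mM and 8 at 20 mM, where TXNRD1 was lost (adjusted p = 0.0685). The fewest reads behind a group's values were 955, for SRXN1 over the control libraries, and 3 libraries per group limit the precision.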
